A study of Homo sapiens with 6 samples.

Results

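The 34 genes described here carry glucose to pyruvate and lactate and control the entry of pyruvate into the mitochondrion. They were taken from the deposited expression table by gene symbol, and all 34 were found among 26819 listed genes. They comprise glucose transporters, the enzymes of glycolysis with their isoenzymes, lactate dehydrogenase, the lactate transporters, the pyruvate dehydrogenase complex with its kinases and a phosphatase, and 2 phosphoglucomutases. The cells were C4-2, a subline of the human prostate cancer line LNCaP that grows under castration, kept in RPMI-1640 medium plus 10% serum. All 6 libraries came from cells carrying Tet-O-YAP5SA, a doxycycline-switched YAP1 whose inhibitory LATS phosphorylation sites are mutated to alanine, so that the coactivator is active. The 3 Ctrl libraries had no doxycycline and the 3 Dox libraries had it for 24 hours, at a labelled 0.2 mg/ml. The unit of that dose could not be checked. No group without the transgene received the drug, so an effect of doxycycline itself cannot be told apart from that of YAP1. Whether the line is a clone, or the replicates grew as separate cultures, is not in the labels, so p-values rest on a spread between libraries that may be only technical. The comparison asks how the transcripts of each step differ once active YAP1 is switched on.

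Glycolysis splits glucose into pyruvate in the cytosol and yields ATP without oxygen. Several steps are run by isoenzymes from separate genes that differ in affinity, regulation and tissue, and the hypoxia factor HIF-1 and the oncoprotein MYC are known activators of many of them. Pyruvate is then either reduced to lactate and exported, or oxidised by pyruvate dehydrogenase, which the PDK kinases switch off. Prostate luminal cells are known for making and secreting citrate rather than oxidising it.

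Levels are given in TPM, which corrects reads for gene length and library total, so levels can be compared between genes but each is relative to the rest of its library. YAP1 was at 56.8 ± 3.72 TPM in Ctrl and 269 ± 6.92 TPM in Dox (SD, n = 3), which checks the labels. Whole reads recovered from the values came to between 24960546 and 29261658 per library, the fewest in Dox 1. Among luminal prostate markers, KLK3 was at 3297 ± 69.6 TPM in Ctrl and 1795 ± 17.1 TPM in Dox, KLK2 and HOXB13 were also lower, KRT8 and KRT18 were higher and FOLH1 did not pass. The markers of fibroblasts (3 of 4 listed) summed to at most 0.288 TPM and those of immune cells (3 of 4 listed) to at most 0.454 TPM. The endothelial markers (2 of 3 listed) summed to 1.17 to 1.41 TPM in Ctrl and 3.97 to 4.57 TPM in Dox, most of it VWF, and the 3 basal markers to at most 1.76 TPM, with KRT5 and TP63 at 0 in at least 1 library of each group. The part of these marker changes in the results below was not tested. In bulk RNA, fewer cells that express a gene and less RNA per cell cannot be told apart.

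Most of the pathway fell. With limma on log2(TPM + 1) and a Benjamini-Hochberg adjusted p under 0.05, 20 of the 34 genes (58.8%) were lower in Dox, 7 (20.6%) were higher and 7 did not pass. Of all 14833 genes tested, those with at least 1 TPM in at least 3 libraries, 17.8% were lower and 35.9% higher, 53.7% in either direction. The 2 groups of libraries did not overlap for 27 of the 34 genes (79.4%), against 61.9% of all tested genes. The median log2 fold change was -0.25 over the 34 genes and 0.10 over all tested genes. Changes were moderate in size: the falls ran from 11.2% for DLAT to 40.5% for GPI, and the largest rise was 1.98-fold, for SLC2A12. The share of higher genes among all calls depends on scaling: 66.8% as deposited, 50.1% once libraries were rescaled by median ratios and 44.9% once they were quantile-normalized. The median over all genes was then 0.00 and -0.04 on the log2 scale. Among the 34 genes, 22 were lower and 5 higher with median ratios, when 26.6% of all tested genes were lower and 26.7% higher. With quantiles 23 were lower and 8 higher, when 29.3% of all were lower and 23.8% higher. The 8 rises with quantiles are thus near the share of all tested genes.

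**Figure D1:**
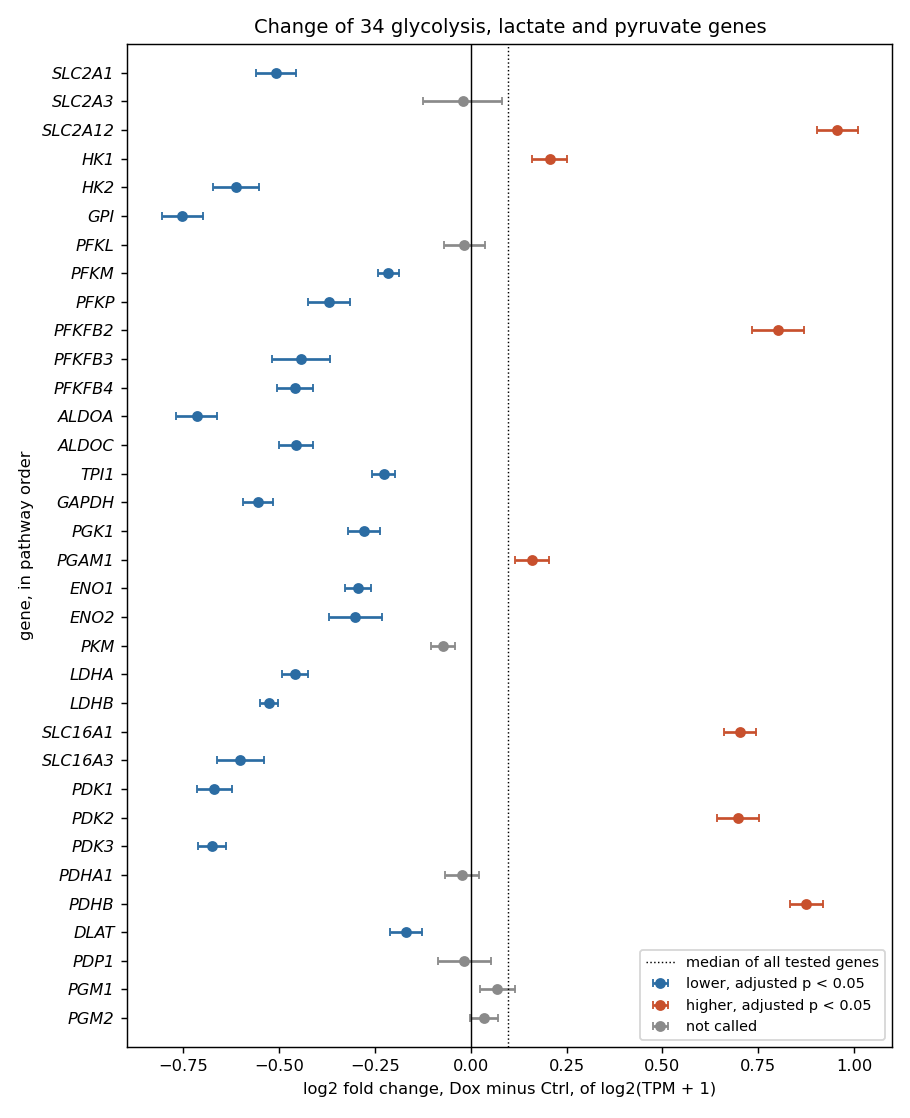
Log2 fold change (Dox minus Ctrl, on log2(TPM + 1)) of the 34 genes in pathway order; points are limma estimates from 3 against 3 libraries, bars the standard error, and the dotted line the median of all tested genes. The 20 blue points lie left of 0 and the 7 red points right of it, with GPI lowest and SLC2A12 highest.

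The level of a gene moved with the direction of its change. Of 328 tested genes that averaged at least 500 TPM, 64.6% were lower and their median log2 fold change was -0.18, and 10 of the 34 genes were in that range. Of these 10, 9 were lower (GPI, ALDOA, ALDOC, TPI1, GAPDH, PGK1, ENO1, LDHA and LDHB) and PKM did not pass, with a median of -0.46. Among the 24 genes under 500 TPM, 11 were lower and 7 higher, where 16.7% of the 14505 tested genes under 500 TPM were lower and 36.3% higher. The median of those 24 genes was -0.02, against 0.10 for the tested genes of that range. The part of expression level in the falls was not tested beyond this comparison.

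**Figure D2:**
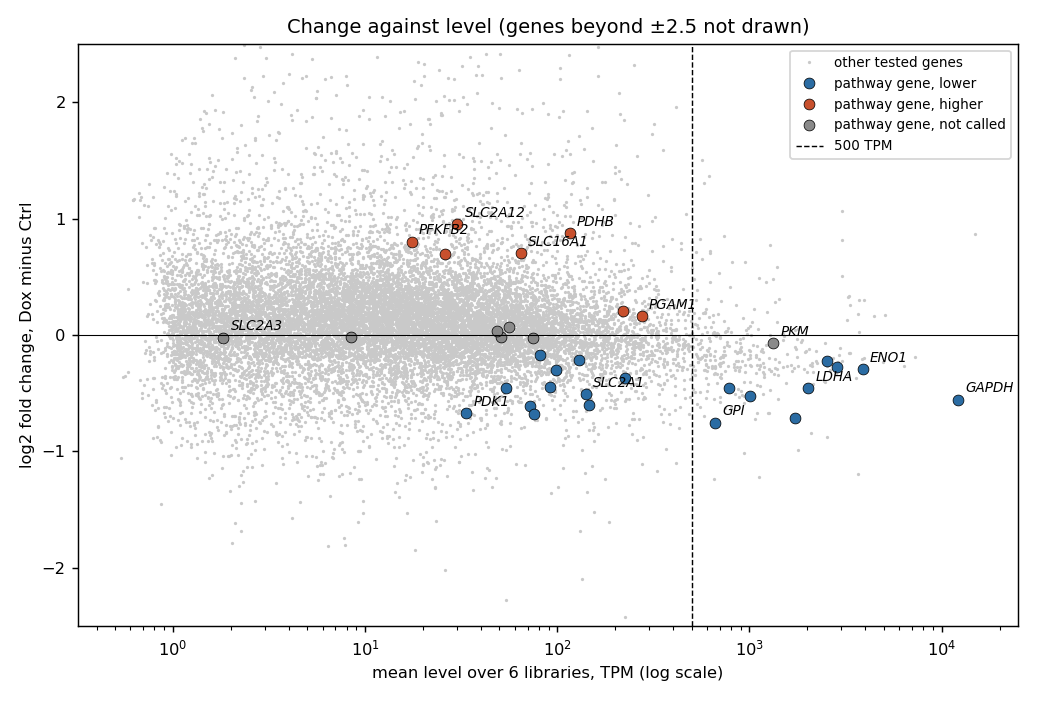
Log2 fold change against the mean level over 6 libraries in TPM (log axis) for all tested genes (grey) and the 34 pathway genes (coloured by call); the dashed line marks 500 TPM, and genes beyond ±2.5 are not drawn. Abundant genes lie mostly below 0, and GPI, ALDOA and GAPDH lie below the bulk of them.

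Because many of the genes moved together, their RefSeq promoters were searched for the letters that HIF-1, MYC and TEAD, the DNA-binding partner of YAP1, are known to bind. A window of 250 bases before to 50 after 1 annotated start was found for 30 of the 34 genes, all except PDP1, SLC16A1, SLC2A3 and PFKFB2. The motifs were ACGTG and GCGTG (hypoxia response element cores), CACGTG (the E-box, which contains ACGTG on both strands) and GGAATG (a TEAD element), each on both strands. The 250 bases before the start are shown for 3 genes that fell and hold several matches, LDHA, PGK1 and HK2, and for PDHB, which rose and also holds them. They are from GRCh38.p14 and run 5′ to 3′ on the gene's strand, with matches in either orientation in capitals.
LDHA, chr11:18394313-18394562, plus strand: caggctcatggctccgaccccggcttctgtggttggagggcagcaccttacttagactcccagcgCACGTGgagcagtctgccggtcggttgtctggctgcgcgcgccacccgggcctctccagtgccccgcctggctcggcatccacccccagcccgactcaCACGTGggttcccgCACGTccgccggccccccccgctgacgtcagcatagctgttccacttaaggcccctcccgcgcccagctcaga
PGK1, chrX:78103998-78104247, plus strand: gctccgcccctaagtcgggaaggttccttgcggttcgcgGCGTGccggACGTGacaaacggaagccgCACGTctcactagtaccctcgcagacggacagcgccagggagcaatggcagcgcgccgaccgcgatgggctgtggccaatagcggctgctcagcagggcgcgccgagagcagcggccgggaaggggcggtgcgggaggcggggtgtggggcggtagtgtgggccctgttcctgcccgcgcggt
HK2, chr2:74833877-74834126, plus strand: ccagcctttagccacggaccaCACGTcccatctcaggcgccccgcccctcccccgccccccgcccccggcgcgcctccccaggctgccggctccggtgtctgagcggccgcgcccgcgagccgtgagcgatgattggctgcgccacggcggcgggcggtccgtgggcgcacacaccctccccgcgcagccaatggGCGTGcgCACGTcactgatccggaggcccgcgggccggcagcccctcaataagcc
PDHB, chr3:58433833-58434082, minus strand: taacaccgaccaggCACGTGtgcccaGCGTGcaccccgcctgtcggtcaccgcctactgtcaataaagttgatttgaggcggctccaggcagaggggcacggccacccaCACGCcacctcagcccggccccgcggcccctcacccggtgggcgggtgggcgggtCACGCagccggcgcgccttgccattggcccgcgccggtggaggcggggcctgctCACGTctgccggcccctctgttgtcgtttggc

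Of the 20 genes that fell, 15 (75%) held either hypoxia core in the window, against 64.3% of 9137 promoters of tested genes and 48.4% of all 27305 promoters of that length. The first core, with A as its opening letter, was in 10 of the 20 (50%), against 27.3% of the promoters of tested genes and 21.6% of all. These matches include those inside an E-box. The second core, GCGTG, was in 11 of the 20 (55%), near the 51.9% of the promoters of tested genes, with 36.3% of all. The E-box was in 3 of the 20 (15%), LDHA, GAPDH and ALDOC, against 10.3% and 7.43%. It was also in PDHB, 1 of 5 windows of genes that rose, and in PGM2, 1 of 5 of genes with no call. Counting each strand separately over the full window, either core matched 6 times in LDHA, 4 times in PGK1, 3 times in HK2 and 6 times in PDHB. PDK1, PFKM, PFKP, SLC16A3 and TPI1 fell and held neither. Of the 5 genes that rose and had a window, PDHB alone held either core, and 4 of the 5 genes with no call did. The TEAD element was in ENO1, which fell, and PGAM1, which rose, against 10.8% of the promoters of tested genes and 14% of all. These counts describe letters near 1 annotated start per gene, and which start the cells use was not measured.

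Glucose entry changed in opposite directions by transporter. SLC2A1 (ENSG00000117394.15), which encodes GLUT1, the main basal glucose transporter, was at 168, 164 and 163 TPM in Ctrl and at 107, 120 and 121 TPM in Dox. Every Dox library was below every Ctrl library, and the gene was 1.42-fold lower (log2 fold change -0.51 ± 0.05 SE, limma adjusted p = 0.000134). SLC2A12 (ENSG00000146411.5), the transporter GLUT12, was at 19.3, 20.1 and 21.4 TPM in Ctrl and 39.6, 42.0 and 39.0 TPM in Dox. It rose 1.98-fold without overlap (log2 fold change 0.96 ± 0.05, adjusted p = 4.94e-06). In GENCODE 29 an exon of SLC2A12 overlaps TBPL1 on the opposite strand (32.3 and 47.3 TPM), and no source used here says whether counting used strand, so reads of the 2 cannot be told apart. SLC2A3 (GLUT3) was at 1.66 to 1.97 TPM in all 6 libraries, from 87 to 109 reads, and did not pass. The row of its pseudogene SLC2A3P1 was at 54.2 and 57.9 TPM, so reads could be split between them.

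The first phosphorylation of glucose showed the same kind of exchange. HK2 (ENSG00000159399.5), the inducible hexokinase typical of tumours, was at 87.2, 86.2 and 89.4 TPM in Ctrl and 51.8, 59.2 and 60.4 TPM in Dox. It was 1.53-fold lower (log2 fold change -0.61 ± 0.06, limma adjusted p = 9.51e-05). HK1 (ENSG00000156515.17), the widely expressed hexokinase, was at 198, 211 and 200 TPM in Ctrl and 222, 246 and 236 TPM in Dox. The HK1 libraries did not overlap and the gene rose 1.16-fold (adjusted p = 0.00636), a call that is lost after median-ratio rescaling (adjusted p = 0.0873). The summed level of both was 291 ± 6.11 TPM in Ctrl and 292 ± 16.4 TPM in Dox, but 0.930 of Ctrl with median ratios and 0.961 with quantiles.

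GPI (ENSG00000105220.10), which turns glucose-6-phosphate into fructose-6-phosphate, had the largest fall of the 34. It was at 804, 846 and 842 TPM in Ctrl and 461, 487 and 534 TPM in Dox, 1.68-fold lower (log2 fold change -0.75 ± 0.05, adjusted p = 1.85e-05). A second listed gene, RP11-618P17.4, overlaps it on the same strand and was at 1328 and 805 TPM, so reads of the 2 cannot be assigned with certainty.

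Phosphofructokinase-1, the committed step, had 2 of 3 genes lower, where 17.8% of all tested genes were lower. PFKP (ENSG00000067057.12), the platelet-type subunit and the most abundant here, was at 254, 257 and 249 TPM in Ctrl and 179, 204 and 206 TPM in Dox, 1.29-fold lower (adjusted p = 0.000884). PFKM, the muscle-type subunit, fell 1.16-fold from 140 ± 1.13 to 121 ± 0.835 TPM. PFKL, the liver-type subunit, was at 51.3 TPM on average in Ctrl and 50.8 TPM in Dox and did not pass.

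The bifunctional PFKFB enzymes make and degrade fructose-2,6-bisphosphate, the strongest activator of phosphofructokinase-1. PFKFB3 (ENSG00000170525.14), the form with the highest kinase activity, was at 99.7, 112 and 106 TPM in Ctrl and 69.6, 78.9 and 85.2 TPM in Dox, 1.36-fold lower (adjusted p = 0.00182). PFKFB4, another kinase-leaning form induced by hypoxia, fell 1.38-fold from 63.1 ± 2.97 to 45.6 ± 1.58 TPM. PFKFB2 (ENSG00000123836.10), the heart-type form, was at 11.5, 13.5 and 12.5 TPM in Ctrl and 23.3, 22.7 and 21.5 TPM in Dox. It rose 1.80-fold without overlap (log2 fold change 0.80 ± 0.07, adjusted p = 4.77e-05). YOD1 overlaps PFKFB2 on the opposite strand and went from 12.2 to 32.9 TPM, and here too reads of the 2 cannot be told apart without strand.

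From aldolase to pyruvate kinase, 7 of 9 genes were lower, PGAM1 was higher and PKM did not pass. Of all tested genes 17.8% were lower, and 64.6% of those averaging at least 500 TPM. That range holds all of the 9 except PGAM1 and ENO2. ALDOA (ENSG00000149925.12), the main aldolase, was at 2146, 2075 and 2216 TPM in Ctrl and 1219, 1293 and 1416 TPM in Dox, 1.64-fold lower (log2 fold change -0.71 ± 0.05, adjusted p = 2.79e-05). ALDOC, the brain-type aldolase, fell 1.37-fold from 906 ± 35.0 to 661 ± 32.8 TPM. GAPDH (ENSG00000111640.10), which oxidises glyceraldehyde-3-phosphate and often serves as a reference gene, was at 14616, 14175 and 14703 TPM in Ctrl and 9454, 9739 and 10442 TPM in Dox. The GAPDH groups were far apart, and its level was 1.47-fold lower (log2 fold change -0.55 ± 0.04, adjusted p = 1.98e-05). GAPDH alone was 40.7 ± 0.175% of the TPM of the 34 genes in Ctrl and 37.1 ± 0.500% in Dox. All 34 together were 3.56 ± 0.0588% of a Ctrl library and 2.66 ± 0.101% of a Dox library (exact permutation test, two-sided, p = 0.1, the smallest that 3 against 3 allows).

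The triose isomerase gene TPI1 fell 1.17-fold from 2724 ± 47.1 to 2328 ± 60.7 TPM, a call lost under quantile normalization (log2 fold change -0.02, limma adjusted p = 0.418). PGK1, the first ATP-yielding kinase of the pathway, fell 1.21-fold from 3138 ± 66.7 to 2590 ± 136 TPM. ENO1 (ENSG00000074800.9), the main enolase, was at 4349, 4232 and 4262 TPM in Ctrl and 3332, 3529 and 3623 TPM in Dox, 1.23-fold lower (adjusted p = 0.000287). ENO2, the neuronal enolase, fell 1.24-fold from 109 ± 9.19 to 88.2 ± 5.41 TPM. PGAM1, the phosphoglycerate mutase between PGK1 and ENO1, rose 1.12-fold instead, from 260 ± 11.2 to 291 ± 12.4 TPM (adjusted p = 0.0168). Its call is lost after median-ratio rescaling (adjusted p = 0.447) and without Dox replicate 2 (0.0543). PKM, the pyruvate kinase gene, was at 1360 ± 31.8 and 1294 ± 35.9 TPM and did not pass (adjusted p = 0.0893). The direction for PKM turns with scaling, called lower with median ratios (log2 fold change -0.18, limma adjusted p = 0.0175) and higher with quantiles (0.10, 0.012), and the table does not separate its M1 and M2 splice forms. PKM is also called lower without Dox replicate 3 (log2 fold change -0.09, limma adjusted p = 0.0419) and by voom on recovered reads (-0.11, 0.00491).

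Both lactate dehydrogenase genes fell, by similar amounts. LDHA (ENSG00000134333.9), the muscle-type subunit that favours lactate production, was at 2409, 2256 and 2365 TPM in Ctrl and 1660, 1719 and 1736 TPM in Dox, 1.37-fold lower (log2 fold change -0.46 ± 0.03, adjusted p = 2.11e-05). LDHB, the heart-type subunit, fell 1.44-fold from 1187 ± 11.9 to 825 ± 4.95 TPM. No Dox library reached the lowest Ctrl library for either gene. The 5 LDHA pseudogene rows summed to 12.5% of LDHA in Ctrl and 12.8% in Dox, so some LDHA reads may be counted there in both groups.

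The lactate transporters moved apart. SLC16A3 (ENSG00000141526.10), the exporter MCT4 of glycolytic cells, was at 176, 176 and 179 TPM in Ctrl and 105, 122 and 123 TPM in Dox, 1.52-fold lower (log2 fold change -0.60 ± 0.06, adjusted p = 0.000124). SLC16A1 (ENSG00000155380.7), the widely expressed transporter MCT1, which carries lactate in either direction, was at 47.6, 50.009 and 48.7 TPM in Ctrl and 79.8, 82.9 and 77.2 TPM in Dox. SLC16A1 rose 1.64-fold without overlap (log2 fold change 0.70 ± 0.04, adjusted p = 6.07e-06).

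At the entry to the mitochondrion, 2 of 3 pyruvate dehydrogenase kinase genes fell and 1 rose. Of all tested genes 17.8% were lower and 35.9% higher, and 3 genes say little about the step as a whole. PDK1 (ENSG00000152256.9), the kinase best known as a HIF-1 target, was at 41.5, 39.9 and 43.2 TPM in Ctrl and 25.8, 25.1 and 26.4 TPM in Dox, 1.61-fold lower (log2 fold change -0.67 ± 0.05, adjusted p = 1.53e-05). PDK3 (ENSG00000067992.8), the most abundant of the 3 here, was at 93.2, 96.3 and 91.8 TPM in Ctrl and 58.9, 59.1 and 57.2 TPM in Dox, also 1.61-fold lower (adjusted p = 3.66e-06). PDK2 (ENSG00000005882.7), the broadly expressed kinase, was at 18.3, 20.7 and 19.7 TPM in Ctrl and 32.6, 32.3 and 31.9 TPM in Dox, a rise of 1.65-fold (log2 fold change 0.70 ± 0.05, adjusted p = 2.85e-05). The rank of the 3 changed with it: PDK2 was below PDK1 in every Ctrl library and above it in every Dox library.

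The subunits of the pyruvate dehydrogenase complex did not move together. PDHB (ENSG00000168291.8), the beta subunit of the decarboxylating component E1, was at 83.3, 80.9 and 79.9 TPM in Ctrl and 156, 152 and 142 TPM in Dox. It rose 1.84-fold without overlap (log2 fold change 0.87 ± 0.04, adjusted p = 2.69e-06). PDHA1, the alpha subunit that the kinases phosphorylate, was at 75.5 ± 2.52 and 74.2 ± 3.17 TPM and did not pass, with a lower call under median ratios (log2 fold change -0.13, limma adjusted p = 0.039) and under quantiles (-0.14, 0.0318). The log2 ratio of PDHB to PDHA1, which no rescaling of a library changes, went from 0.11 ± 0.05 to 1.02 ± 0.13 (exact permutation p = 0.1, the smallest possible; pair chosen after its values were seen). DLAT, the acetyltransferase E2, fell 1.13-fold from 85.8 ± 4.28 to 76.2 ± 0.796 TPM (adjusted p = 0.0117). PDP1, a phosphatase that reactivates the complex, was at 8.54 ± 0.480 and 8.43 ± 0.458 TPM and did not pass.

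The phosphoglucomutases, which link glycolysis to glycogen, did not pass. PGM1 (ENSG00000079739.11) was at 56.4, 54.8 and 52.1 TPM in Ctrl and 59.5, 56.0 and 56.1 TPM in Dox, with overlapping groups (adjusted p = 0.225). PGM2 was at 47.8 ± 1.21 and 48.9 ± 0.440 TPM (adjusted p = 0.458). Both point lower with median ratios and with quantiles, where PGM2 is called lower (log2 fold change -0.09, limma adjusted p = 0.0355). Of the 20 genes that fell, 14 had their lowest Dox value in Dox 1. Without that library the counts were again 20 lower and 7 higher. The share of all tested genes lowest in Dox 1 was not computed, so the 14 cannot be called particular to these genes.

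**Figure D3:**
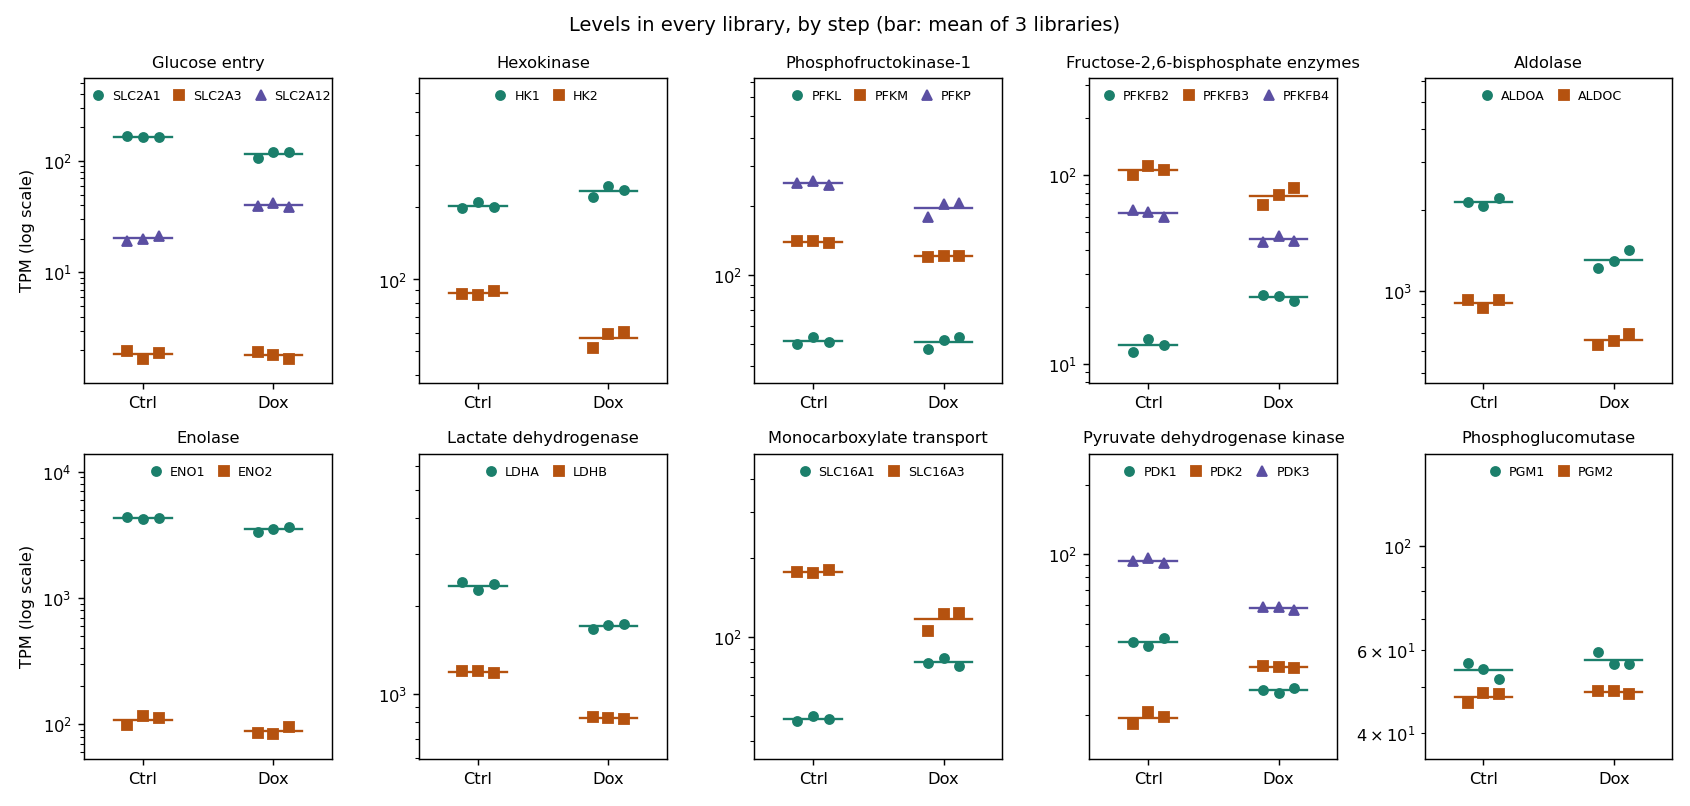
Level of each isoenzyme in every library in TPM (log axes, each panel with its own range) for the 10 steps with more than 1 gene; symbols are single libraries and bars the mean of 3. SLC2A12, HK1, PFKFB2, SLC16A1 and PDK2 rise beside a falling partner, whereas both genes of aldolase, enolase and lactate dehydrogenase fall.

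Isoenzyme shares, the percent of a step's summed TPM held by 1 gene, do not change when a library is rescaled. Over 10 steps 18 shares were compared, and the groups did not overlap for 14. Each of these 14 had an exact permutation p of 0.1, the smallest that 3 against 3 libraries can give. Adjusted over the 18 it was 0.129, so no share can pass a threshold of 0.05. Single genes did not overlap for 61.9% of all tested genes, and no such figure was computed for shares in other gene families. Shares of 1 step also depend on each other, so the 14 are not separate results. The largest move was in lactate transport, where SLC16A1 held 21.2%, 22.2% and 21.4% in Ctrl and 43.2%, 40.5% and 38.5% in Dox. The share of PDK2 went from 12.6 ± 0.629% to 27.7 ± 0.0716%, while PDK3 went from 60.5 ± 1.06% to 50.1 ± 0.629%. SLC2A12 held 10.8 ± 0.654% and 25.5 ± 1.33% of glucose transporter TPM. HK1 held 69.9 ± 0.999% and 80.4 ± 0.741%, and PFKFB2 6.88 ± 0.339% and 15.5 ± 1.40%.

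Other steps kept closer shares. ALDOA held 70.3 ± 0.432% of aldolase in Ctrl and 66.4 ± 0.593% in Dox, and PFKP 57.0 ± 0.218% and 53.3 ± 1.41% of phosphofructokinase-1. LDHA held 66.4 ± 0.823% and 67.4 ± 0.635% of lactate dehydrogenase, with overlapping groups (exact permutation p = 0.3). ENO1 held 97.5 ± 0.237% and 97.5 ± 0.113% of enolase (p = 0.8, exact), and PGM1 53.3 ± 1.51% and 53.9 ± 0.771% (p = 0.5, exact). The summed level of a step was 0.65 of its Ctrl value for aldolase, 0.72 for lactate dehydrogenase, 0.75 for the PDK kinases and 0.87 for lactate transport, each without overlap. For phosphoglucomutase it was 1.04, also without overlap, a direction that turns with scaling. The exact permutation p was 0.1 for every step without overlap, 0.111 adjusted over the 10 steps.

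**Figure D4:**
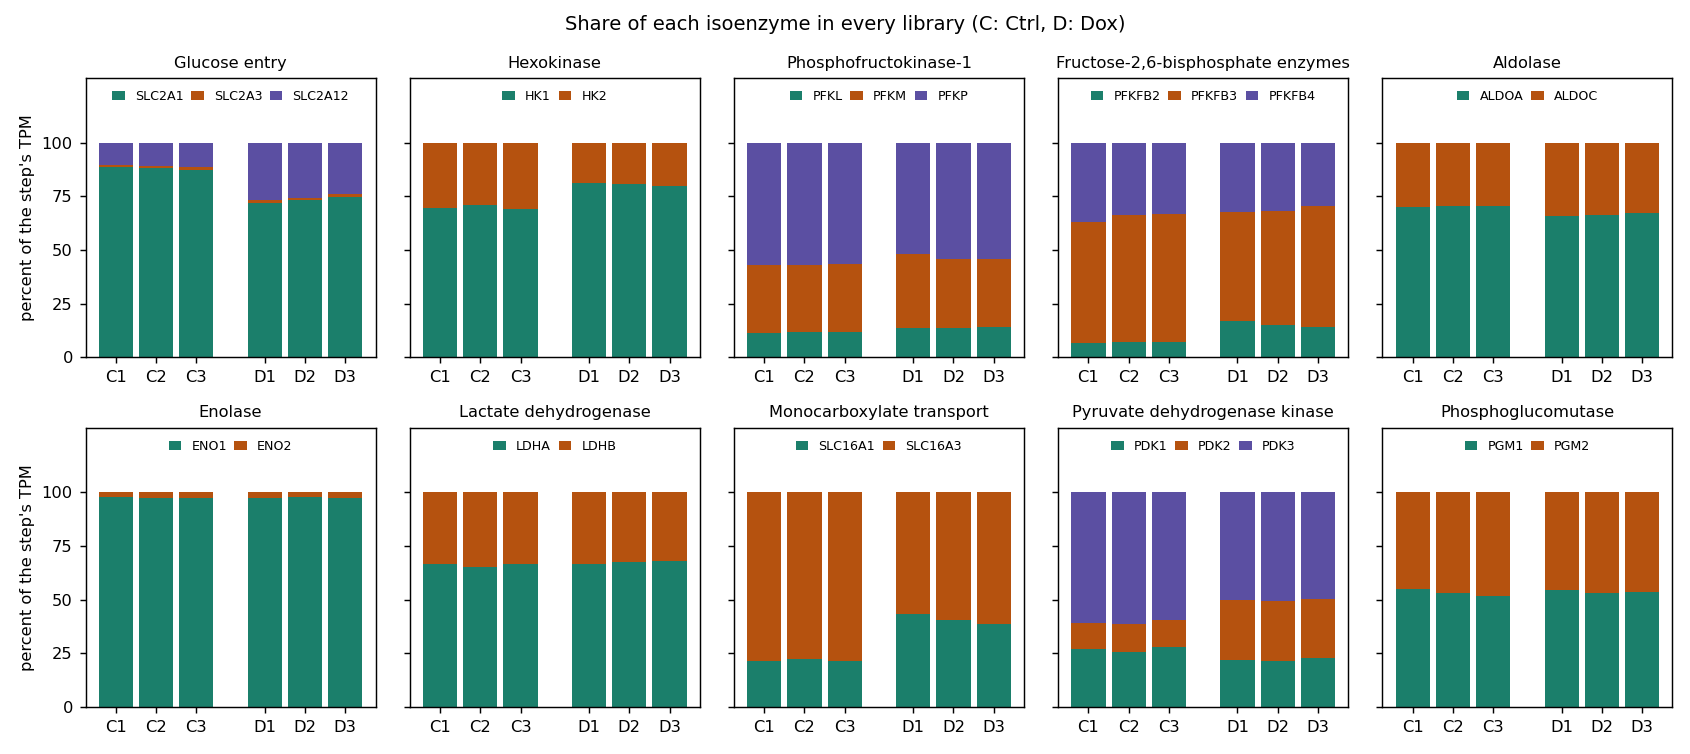
Percent of a step's summed TPM held by each isoenzyme in the 3 Ctrl (C1 to C3) and 3 Dox (D1 to D3) libraries; stacked bars start at 0 and add up to 100. The SLC16A1 part grows from about 21.6% to 40.7% on average, while the LDHA and ENO1 parts are level.

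Of 39 other genes of glucose, lactate and pyruvate metabolism, 24 were tested, and 8 of these were higher and 6 lower, near the 35.9% higher and 17.8% lower of all tested genes. Their median log2 fold change was 0.00, against 0.10 over all tested genes, and their difference from the 34 genes was not tested. SLC16A7, the transporter MCT2, went from 1.37 ± 0.154 to 3.63 ± 0.292 TPM, and TIGAR (listed as C12orf5), a fructose-2,6-bisphosphatase, rose 1.72-fold to 47.5 ± 1.47 TPM. BPGM, which makes 2,3-bisphosphoglycerate, rose 1.54-fold to 149 ± 2.69 TPM. DLD, the E3 component of pyruvate dehydrogenase, rose 1.44-fold from 128 ± 4.07 to 185 ± 8.43 TPM. Among the falls, pyruvate carboxylase (PC) went from 28.6 ± 0.339 to 23.7 ± 2.54 TPM, PCK2 from 92.6 ± 4.02 to 79.6 ± 1.42 TPM, G6PC3 from 41.2 ± 1.48 to 35.6 ± 0.692 TPM and GPD1L from 46.4 ± 2.19 to 40.6 ± 1.47 TPM. BSG, the chaperone of MCT1 and MCT4, was at 635 ± 6.21 and 559 ± 28.5 TPM and also fell. The mitochondrial pyruvate carriers MPC1 and MPC2 did not pass, with MPC2 at 1284 ± 46.3 and 1283 ± 24.9 TPM.

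Of 13 pentose phosphate and glycogen genes, all tested, 7 were lower and 1 higher, where 17.8% of all tested genes were lower and 35.9% higher. The median log2 fold change of the 13 was -0.16. Transketolase (TKT) went from 227 ± 4.60 to 148 ± 6.06 TPM, the glycogen branching enzyme GBE1 from 69.5 ± 0.911 to 46.7 ± 0.696 TPM, the liver-type glycogen phosphorylase PYGL from 54.5 ± 1.13 to 39.7 ± 1.17 TPM and the brain-type PYGB from 92.6 ± 4.56 to 78.0 ± 2.27 TPM. UGP2, which makes UDP-glucose, rose 1.39-fold to 56.1 ± 0.648 TPM.

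Of 10 tested regulators of glycolytic genes, 5 were higher and 3 lower, beside 35.9% and 17.8% of all tested genes, and so few genes say little about regulators as a group. Their median log2 fold change was 0.24. MYC rose 2.20-fold from 83.4 ± 4.23 to 184 ± 8.63 TPM (log2 fold change 1.13 ± 0.05). HIF1A, the oxygen-regulated subunit of HIF-1, rose 1.18-fold to a mean of 98.4 TPM, its partner ARNT 1.37-fold to 44.9 ± 2.04 TPM, and EPAS1 1.82-fold to 7.21 ± 0.254 TPM. MLX, the partner of the glucose-sensing Mondo factors, rose 1.31-fold. TXNIP, which promotes the removal of GLUT1 from the cell surface, fell from 12.4 ± 0.586 to 5.14 ± 0.895 TPM (log2 fold change -1.13 ± 0.11). ESRRA fell 1.48-fold to 45.6 ± 1.43 TPM and MLXIP from 9.34 ± 0.450 to 7.45 ± 0.459 TPM.

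Of 13 tested hypoxia genes outside glycolysis, 9 were lower and 3 higher, where 17.8% of all tested genes were lower and 35.9% higher. Their median log2 fold change was -0.63, against 0.10 over all tested genes. ANKRD37 fell from 219 ± 14.2 to 50.4 ± 2.36 TPM, CA12 from 50.1 ± 3.17 to 21.6 ± 1.51 TPM and VEGFA from 42.1 ± 0.655 to 19.4 ± 2.13 TPM. MXI1, a MYC antagonist, fell from 109 ± 2.46 to 65.8 ± 2.25 TPM. EGLN3, an oxygen-sensing prolyl hydroxylase, rose 1.82-fold, NDRG1 went from 316 ± 2.30 to 465 ± 28.8 TPM and P4HA2, a collagen prolyl hydroxylase, from 28.3 ± 0.447 to 31.4 ± 0.474 TPM.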

How the data were processed

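FastQC 0.11.2, STAR 2.5.3a, featureCounts, edgeR and hg19 are named, with no role or order, per the submitters' processing notes. The annotation release used by the authors, and their strand setting, were not given in the sources used here. The authors deposited 1 table of TPM per gene and library, with each library summing to the same total. Groups and replicates are those of the sample titles. The genes and lists were chosen with earlier results of these data known. Motif counts are descriptions, and the 18 isoenzyme shares and 10 step totals had exact two-sided permutation tests, adjusted within each kind.

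The test was limma 3.58.1 (R 4.3.3), fitted with an intensity trend to log2(TPM + 1) for genes reaching 1 TPM in 3 or more of 6 libraries, two-sided, with Benjamini-Hochberg adjustment over 14833 genes and a threshold of 0.05. Folds without "log2" are ratios of mean TPM, and the log2 scale understates changes near 1 TPM. On simulated data of all 14833 genes (200 changed, 50 per size), the fit recovered 28% of 1.2-fold, 70% of 1.5-fold, 88% of 2-fold and 94% of 4-fold changes, with 9 false calls. In the data 53.7% of genes were called, far more than were changed there. The adjustment is then less strict, so these rates do not give the recovery in the data.

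Whole reads were recovered as TPM times gene length over a library constant, with a tolerance of 0.01 reads. The GENCODE 29 exon length gave whole reads for 9115 of the 14833 tested genes, and the smallest whole length that did so for the other 5718. In libraries simulated from these recovered reads and lengths, 99.5% of 1660 genes had all read counts right. A wrong searched length in the data would not show there, since the simulation takes the lengths as true. On a 1 kb gene, 3 reads are worth from 0.335 TPM to 0.401 TPM, a limit that covers counting error only. Replicates were distinct libraries, with a chi-square per gene between 2.55 and 4.99 for each pair in a group (genes of 10 or more reads).

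Named genes are all 34, with every library's value for the 12 largest called changes without overlap and for the leading isoenzyme of each step, up to 4 called genes per list and direction outside the 34, and HIF1A, MYC, TXNIP and YAP1. BSG, MPC1, MPC2 and the marker genes are examples picked with their values known. The alternatives tried were a pseudocount of 0.1, no filter, a stricter one (mean of 5 TPM), median ratios, quantiles, no trend, a replicate block, leaving out each library and, added after the data were seen, limma voom on the recovered reads. The level of 500 TPM and the ratios to GAPDH were also chosen after the data were seen. Some luminal markers are not reported here.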

Additional observations from a re-analysis of the deposited data

How the results depend on the processing

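Over 14 alternatives, 19 of the 20 genes that fell kept their call and direction, the exception being TPI1, and 5 of the 7 that rose, the exceptions being HK1 and PGAM1. Called members ranged from 20 to 23 lower and from 5 to 8 higher. Leaving out 1 library gave 20 to 21 lower and 6 to 7 higher. Quantile normalization gave 3536 higher and 4348 lower genes in all, against 5319 and 2640.

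With the replicate number as a block, 7 members were higher and 20 lower, and 5223 and 2618 genes in all, 16 and 25 in the lists outside the 34. Deviations from the group means were hardly correlated between same-numbered libraries (-0.00854, 0.0633 and 0.00346). Between libraries of unlike number the correlations ran from -0.0403 to 0.0384. No strong shared shift was seen, but such values cannot tell whether same-numbered cultures were handled together.

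Some genes without a call turned direction. PKM was at 0.099 after quantile normalization (limma adjusted p = 0.012). PGM1 was at -0.0385 with median ratios and -0.0600 with quantiles, and PGM2 at -0.0733, at -0.0919 (adjusted p = 0.0355) and, with voom, at -0.00624. With 1 library left out, log2 fold changes ran from -0.0651 to 0.0162 for SLC2A3, from -0.0500 to 0.0312 for PFKL, from -0.0473 to 0.0109 for PDHA1 and from -0.0581 to 0.0158 for PDP1. The hexokinase total was 0.961 of Ctrl with quantiles and 0.930 with median ratios, and 0.980 to 1.03 with 1 library left out. The phosphoglucomutase total was 1.04 of Ctrl as deposited, but 0.948 and 0.962 of Ctrl under those rescalings. With 1 library left out, the change in share was from -0.0709 to 0.156 percentage points for ENO1 and from -0.0731 to 1.42 for PGM1. Quantile normalization also called PFKL (-0.14) and PDP1 (-0.20) lower. The causes were not tested. Depth limits SLC2A3, at 87 to 109 reads, most.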

Other observations

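GAPDH is often used to normalise other transcripts, so the other 33 genes were also set against it within each library. Relative to GAPDH, 23 of 33 were higher in Dox without overlap, 4 were lower without overlap (GPI, ALDOA, PDK1 and PDK3) and 6 overlapped. Of 14555 tested genes with a value in every library, 83.5% were higher without overlap. The shares of those genes that were lower or overlapped were not computed. PKM, which did not pass in TPM, was 1.40-fold higher relative to GAPDH, and PGK1, which fell in TPM, was 1.21-fold higher. HK2, SLC16A3 and SLC2A1, which fell in TPM, were at 0.956, 0.967 and 1.03 of their Ctrl ratio, with overlapping groups. SLC2A12, PDHB and PFKFB2 were 2.92-fold, 2.72-fold and 2.65-fold higher. These ratios show unequal change and do not say which gene of a pair moved.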
